A study of Homo sapiens with 4 samples.

Results

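NRAS and HRAS, the RAF kinases BRAF and ARAF, the MEK kinases MAP2K1 and MAP2K2, and the ERK kinase MAPK3 were followed across a crossed siRNA and miRNA mimic experiment in neuroblastoma cells. These 7 genes were chosen by symbol from the 19826 gene rows of the table, and 5 of the 7 had a mean of at least 5, the level set for testing. The remaining classical RAS, RAF and ERK genes were not analysed here. The cells were BE(2)C, a human neuroblastoma line, in the form the labels name BE(2)C:MYCN-ORF, so that cells of every group carried an introduced MYCN open reading frame. They received a control siRNA (siCon) or an siRNA named for MYCN (siMYCN), together with a control miRNA mimic (miRCon) or a let-7a mimic, and polyA RNA was taken 48 hours after transfection. Each of the 4 combinations was sequenced once, so a difference between any 2 libraries cannot be set against a spread between replicates. The 4 libraries are called below neither (siCon and miRCon), let-7a alone (siCon with the mimic), siMYCN alone (the siRNA with miRCon) and both. The labels do not say which part of MYCN the siRNA targets or what the control siRNA and control mimic are.

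RAS proteins are small GTPases at the cell membrane that are switched on when growth factor receptors recruit exchange factors. Active RAS recruits RAF kinases, RAF phosphorylates the MEK kinases, and MEK phosphorylates ERK, which acts on cytoplasmic kinases and on transcription factors. RAS transcripts are among the best known targets of the let-7 miRNAs, which bind sites in 3′ UTRs through bases 2 to 8 of the miRNA, the seed. In neuroblastoma, let-7 miRNAs are known to be held down by LIN28B, and the MYCN gene is often amplified.

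The let-7a sequence and the seed matches found in the 3′ UTRs of the 7 genes are shown first, since they are the sequence basis on which a mimic could act on these transcripts. In the mature miRNA, from RefSeq (GRCh38.p14), the capitals mark the seed, which 9 human miRNAs of the let-7 and miR-98 family share. In the sites, read on the transcript strand from GENCODE release 29 (GRCh38), the capitals mark the bases that match the seed or pair beside it.
let-7a-5p: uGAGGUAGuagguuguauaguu
NRAS site 1: agaagttctcagaataaCTACCTCct
NRAS site 2: tgaaaagaattctagttTACCTCAaa
BRAF site: gtgacctctacaaaaaaCTACCTCtt

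NRAS held 2 matches in its 3′ UTR of 3625 bases, a 7mer-m8 (pairing to bases 2 to 8) and a 7mer-A1 (pairing to bases 2 to 7 with an A opposite the first base). Their displayed stretches lie at chr1:114707900-114707925 and chr1:114705494-114705519 on the minus strand. The first begins at base 186 of the 3′ UTR and the second at base 2592. Among the 8912 tested genes with an annotated 3′ UTR, 3.77% held at least 2 sites of 7 or 8 bases and 19% held at least 1. BRAF held 1 match, a 7mer-m8 at chr7:140723074-140723099 on the minus strand, in a 3′ UTR of 7167 bases. The BRAF transcript with the longest coding sequence has a 3′ UTR of only 125 bases and holds none. HRAS, ARAF, MAP2K1, MAP2K2 and MAPK3 held no match of 7 or 8 bases, and MAP2K1 had a single match of 6 bases. These matches are letters in an annotation, and no binding was measured here.

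The values in the table are natural logs, back-transformed here to a linear scale. Since that scale resembles TPM, they are referred to as TPM-like, and they are taken as scaled for transcript length, which lets levels of different genes be set side by side. Counting error is unknown, because depth cannot be recovered from such values. The back-transformed values summed to between 855811 and 862049 in the 4 libraries. MYCN, the gene named by the siRNA, was at 1449 and 1433 in the siCon libraries and at 1238 and 1197 in the siMYCN libraries (miRCon, then let-7a), so it was only modestly lower, and the introduced reading frame was not told apart from the cells' own gene. LIN28B, a let-7 target, was at 157 and 96.5 with siCon and at 119 and 55.5 with siMYCN in the same order. All 11 noradrenergic neuroblastoma markers were at 5 or more in every library. Their summed level ran from 3012 to 5522. Of 7 fibroblast markers, 6 were at 5 or more in every library, with sums from 383 to 444. Epithelial and blood markers summed to 7.77 or less, and the epithelial markers CDH1, KRT5 and KRT14 and the blood marker HBB were listed at 0.

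Levels of the 7 genes differed widely and kept nearly the same order in each library. MAP2K2, one of the MEK kinases, was highest, from 107 to 125. NRAS followed with 70.8 to 105, and its range overlapped that of MAP2K1, the other MEK kinase, at 58.2 to 72.9. The order of these 2 changed in 1 library, that with let-7a alone, where MAP2K1 was above NRAS. ARAF lay between 44.0 and 51.1 and BRAF between 23.3 and 26.2, so that neither range touched another. MAPK3 stayed between 1.20 and 1.33, and HRAS was at 0.401 or less. The highest library exceeded the lowest 1.49-fold for NRAS, 1.25-fold for MAP2K1, 1.17-fold for MAP2K2, 1.16-fold for ARAF and 1.12-fold for BRAF.

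**Figure D1:**
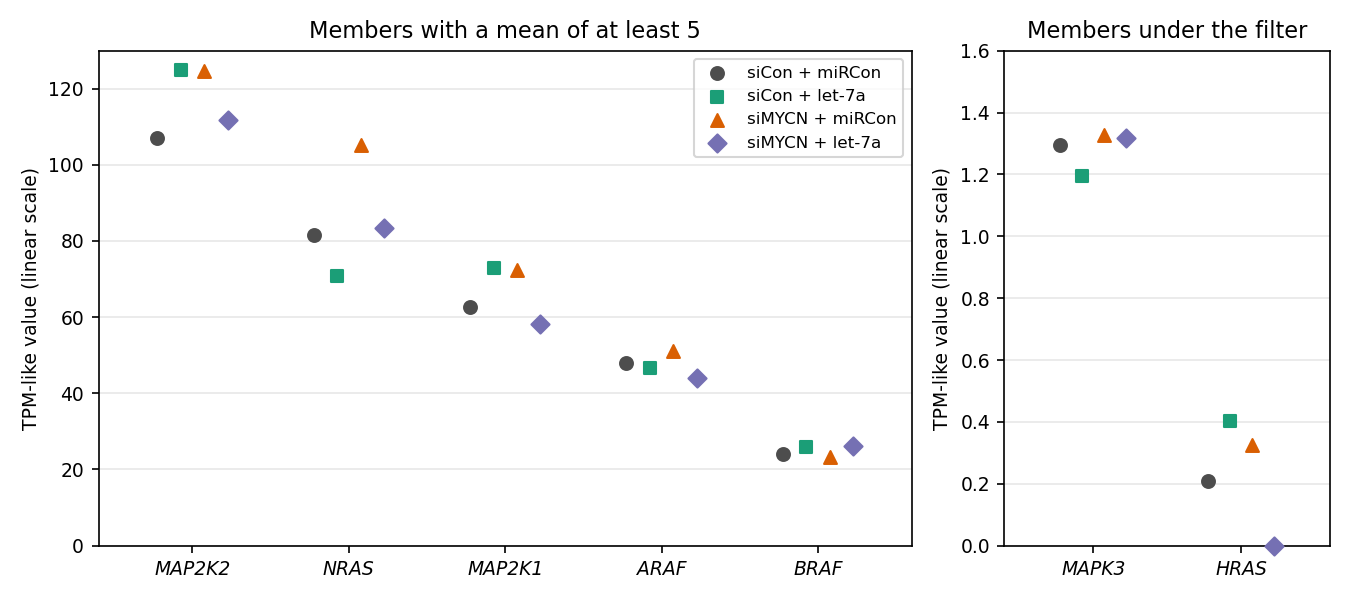
TPM-like values (vertical axes, linear, separate for each panel) of the 7 genes in the 4 libraries, with 1 point for each library and no error bars because no group had a replicate. MAP2K2 lies above the other genes in every library, the NRAS points spread from 70.8 to 105, and MAPK3 and HRAS lie below 1.4.

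NRAS, the GTPase of this set with let-7 matches, was lower with let-7a and higher with siMYCN in each pair of libraries. Its TPM-like value was 81.6 with neither, 70.8 with let-7a alone, 105 with siMYCN alone and 83.4 with both. Thus the highest value was in siMYCN cells without let-7a, the lowest was in siCon cells with let-7a, and the libraries with neither and with both treatments were close. The let-7a mimic went with a change of -13.3% in siCon cells and -20.6% in siMYCN cells, or -0.20 and -0.33 in log2 on the log2(value + 1) scale. The siMYCN change was 28.8% with miRCon and 17.9% with let-7a, or 0.36 and 0.23 in log2. With both treatments against neither, NRAS differed by 2.23%.

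These effects were tested with limma in a model in which the 2 treatments add, fitted over 9324 genes. Its error comes from the departure from additivity, with 1 residual degree of freedom, so its p-values assume that the treatments do not interact and rest largely on the spread of other genes. For NRAS the let-7a effect over both pairs was -0.27 ± 0.086 (SE, n = 4 libraries), with an unadjusted p of 0.0249 and a Benjamini-Hochberg adjusted p of 0.663 in limma. The siMYCN effect was 0.30 ± 0.086, with an unadjusted p of 0.0164 and an adjusted p of 0.109 in limma. Neither passed 0.05 after adjustment. Of all tested genes, 14.6% were, like NRAS, below 0 with let-7a in both pairs and above 0 with siMYCN in both pairs. Taken singly, let-7a had 33.5% of tested genes below 0 and 22.6% above 0 in both pairs, and siMYCN had 43.2% above 0 and 27.4% below 0 in both pairs. The additive let-7a effect of NRAS was above that of 10.1% of tested genes, and its siMYCN effect was above that of 79.8%.

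The let-7a effect of NRAS can be set beside that of genes with as many seed matches. The 336 tested genes with at least 2 sites of 7 or 8 bases, NRAS among them, had a median let-7a effect of -0.079 in siCon cells and -0.12 in siMYCN cells (log2). The 7216 genes with no such site had medians of -0.010 and -0.033. NRAS was thus lower than the median of either class in each pair. BRAF, with 1 match in its long 3′ UTR, was above 0 in both pairs. The 1360 tested genes with 1 site had medians of -0.056 and -0.069.

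HRAS, the other RAS gene of the set, was listed at 0.209 with neither, 0.401 with let-7a alone, 0.327 with siMYCN alone and 0 with both. These values are too low for a direction to be read from them. A listed 0 need not mean that the gene was silent. Of 137 genes for ribosomal proteins, proteasome subunits, RNA polymerase II subunits and eIF3 subunits, 6 were under 1 in every library. PSMB8, PSMB9, PSMB11 and PSMA8 belong to specialised proteasomes, but RPS18, a ribosomal protein, and PSMC4, a proteasome ATPase, are used by every cell. RPS18 was listed at 0, 0.183, 0 and 0.326 in the same order of libraries, and PSMC4 at 0.84, 0.917, 0.235 and 0.606. Of the coding genes on either side of HRAS on chromosome 11, LRRC56 was at 0.227 or less and RNH1, a ribonuclease inhibitor, was between 1.92 and 3.17. PTDSS2, a phospholipid enzyme gene beyond RNH1, was between 22.9 and 25.6.

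Of the RAF kinases, ARAF was above BRAF in every library. The ratio of ARAF to BRAF was 2.00 with neither treatment, 1.81 with let-7a alone, 2.19 with siMYCN alone and 1.68 with both, and so was lower in both let-7a libraries than in both miRCon libraries. ARAF, the RAF kinase encoded on the X chromosome, was at 47.9 with neither, 46.7 with let-7a alone, 51.1 with siMYCN alone and 44.0 with both. Its log2 change with let-7a was -0.037 in siCon cells and -0.21 in siMYCN cells. BRAF, the RAF kinase most often mutated in cancer, was at 23.98, 25.8, 23.3 and 26.2 in the same order. Its let-7a changes were 0.10 and 0.16. Neither gene passed limma for let-7a, with adjusted p of 0.779 for ARAF and 0.801 for BRAF. For siMYCN the additive effects were near 0, at 0.0032 ± 0.10 for ARAF and -0.0092 ± 0.12 for BRAF (SE), with adjusted p of 0.987 and 0.971 in limma. With values rescaled by median ratios the ARAF value was -0.057, so it has no settled sign. The sum of the 2 RAF transcripts moved little, from 70.2 to 74.4.

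The MEK kinases, which pass the signal from RAF to ERK, shared another pattern. MAP2K1 was at 62.6 with neither, 72.9 with let-7a alone, 72.3 with siMYCN alone and 58.2 with both. MAP2K2 was at 107, 125, 125 and 112 in the same order. Both were higher in the 2 libraries with a single treatment than in the library with neither and the library with both. Their sum was 169.6 and 170.03 in the latter 2 libraries, and 198 with let-7a alone and 197 with siMYCN alone. The ratio of MAP2K2 to MAP2K1 was 1.71, 1.71 and 1.72 in the first 3 libraries and 1.92 with both treatments.

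In log2 terms, let-7a went with 0.22 for MAP2K1 and 0.22 for MAP2K2 in siCon cells, and with -0.31 and -0.16 in siMYCN cells. The let-7a effect in siMYCN cells minus that in siCon cells was -0.52 for MAP2K1 and -0.38 for MAP2K2. Of tested genes, 23.5% were above 0 with let-7a in siCon cells and below 0 in siMYCN cells, as both MEK genes were. Of tested genes, 6.89% had a more negative difference than MAP2K1 and 12.5% than MAP2K2. The median difference over all 9324 genes was -0.015. With 1 library a group this difference has no error of its own and could not be tested. The pattern of both genes, above 0 with each treatment alone and below 0 with each treatment on top of the other, was held by 940 tested genes, or 10.1%. Because the effects had opposite signs, the additive values were near 0: -0.046 ± 0.14 with let-7a and -0.059 ± 0.14 with siMYCN for MAP2K1, and 0.033 ± 0.11 and 0.031 ± 0.11 for MAP2K2 (SE). Adjusted p in limma lay between 0.83 and 0.943 for these 4 values. With rescaled values the siMYCN effect of MAP2K2 was -0.030, on the other side of 0.

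**Figure D2:**
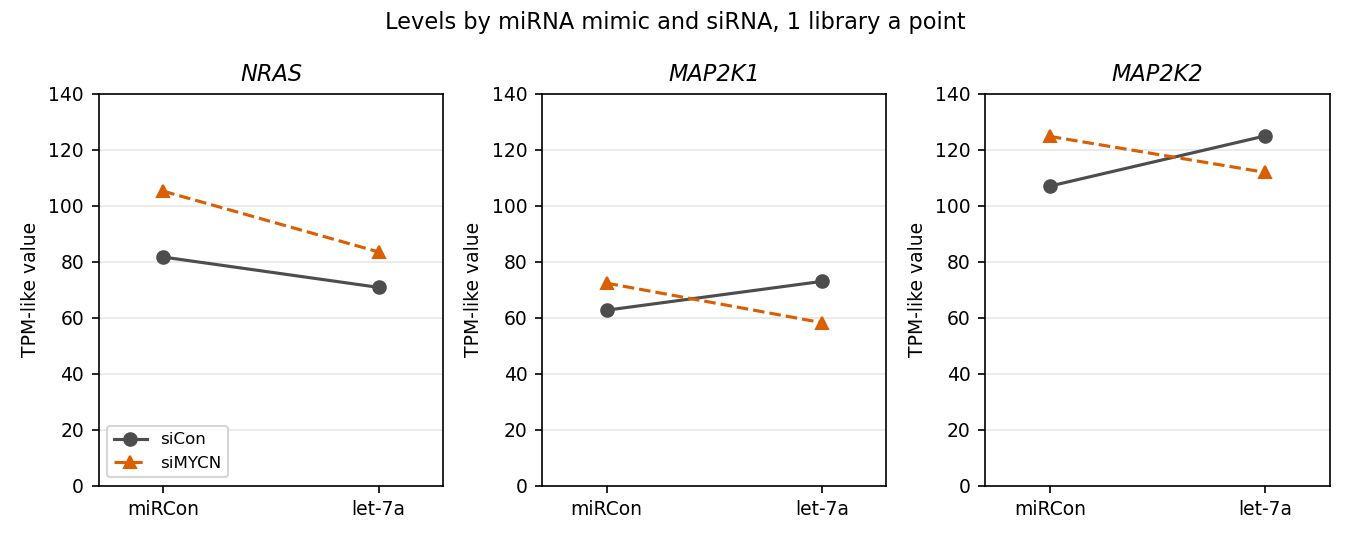
TPM-like values (vertical axes from 0) of NRAS, MAP2K1 and MAP2K2 by miRNA mimic (horizontal axis), with 1 line for each siRNA and 1 library a point. The NRAS lines both go down from miRCon to let-7a, from 81.6 to 70.8 and from 105 to 83.4, while the lines of the MEK genes cross.

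MAPK3, which encodes the ERK1 kinase, was at 1.296 with neither, 1.20 with let-7a alone, 1.33 with siMYCN alone and 1.32 with both. It lay under the filter and was not tested, and its values differed at most 1.11-fold. The caution given for HRAS holds here as well. Of the coding genes on either side of it on chromosome 16, GDPD3 was between 0.266 and 2.20 and CORO1A, an actin-binding protein gene, between 0.293 and 2.73. BOLA2B, beyond CORO1A, was between 19.5 and 30.8.

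No member passed limma for let-7a or for siMYCN: 0 of 5 tested for each, against 0% of all tested genes called for let-7a and 3.43% for siMYCN in either direction. NRAS was the only member with an unadjusted p under 0.05, for either treatment. Over all genes, limma had 697 genes at an unadjusted p under 0.05 for let-7a and 2461 for siMYCN. By a rule of size, a change of 1.5-fold or more in the same direction in each pair, 0 members qualified, and 0 reached 1.5-fold in even 1 pair. That rule took 0.204% of tested genes as higher and 0.257% as lower with let-7a, and 2.85% and 1.61% with siMYCN. The median additive effect of the 5 tested members was -0.046 for let-7a, against -0.031 over all tested genes, and 0.0032 for siMYCN, against 0.056.

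**Figure D3:**
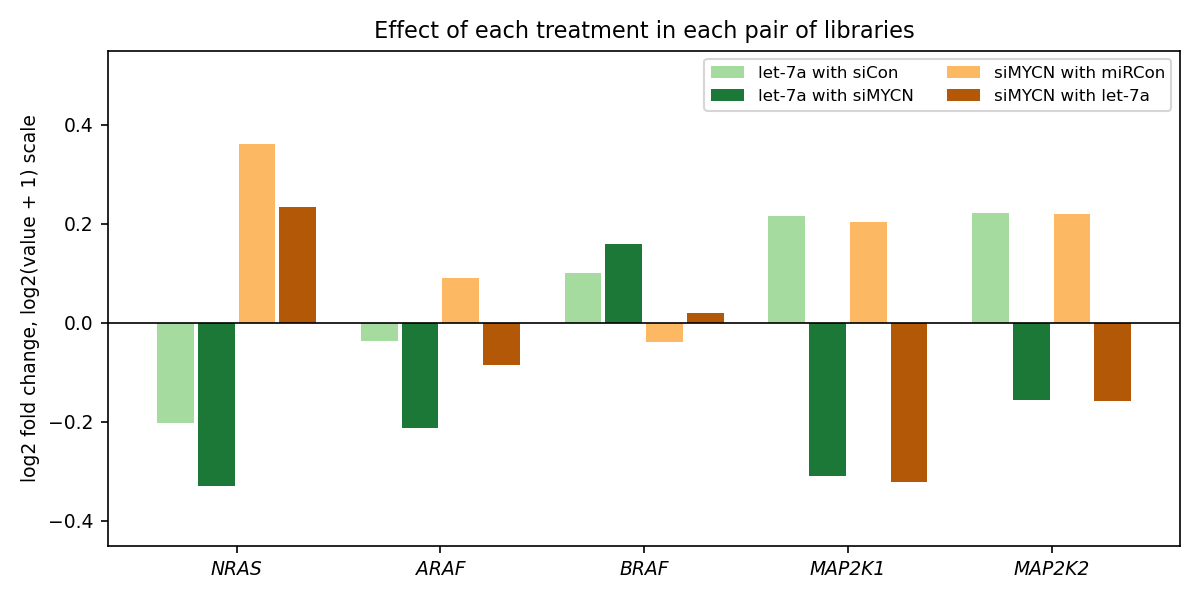
Log2 fold changes on the log2(value + 1) scale (vertical axis) of the 5 tested genes for each treatment in each pair of libraries (bars, 1 pair each, no error bars because pairs are not replicated). NRAS has bars of 1 sign for each treatment, at -0.20 and -0.33 with let-7a and 0.36 and 0.23 with siMYCN, and the bars of MAP2K1 and MAP2K2 change sign with the other treatment.

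Some reads of these genes could belong to overlapping genes, since the labels name no strand-specific counting. Overlaps were counted between whole gene spans, introns included, so the mature transcripts may share fewer bases or none. MAP2K1, on chromosome 15 from 66386817 to 66492312, overlaps SNAPC5, a snRNA transcription factor gene on the other strand, over 2178 bases. It also overlaps the antisense gene AC116913.1 over 3452 bases and the processed pseudogenes ATP5MFP6 and RPL35AP32 over 266 and 323 bases, whose levels were not analysed here. SNAPC5 was at 39.7, 31.1, 30.1 and 31.3 in the 4 libraries, in the order used for MAP2K1. The share of MAP2K1's value that comes from overlapping genes was not tested. BRAF, on chromosome 7 from 140719327 to 140924928, overlaps the respiratory chain gene NDUFB2 over 3464 bases of the other strand and the snRNA gene RNU6-85P over 107. NDUFB2 was at 67.5, 68.2, 68.4 and 86.1, highest with both treatments, where BRAF was highest too. Their lowest libraries differed, siMYCN alone for BRAF and neither for NDUFB2. The share of BRAF's value that comes from NDUFB2 was not tested. ARAF, on chromosome X from 47561100 to 47571920, shares 23 bases with SYN1. NRAS (chromosome 1, 114704469 to 114716894), HRAS (chromosome 11, 532242 to 537287), MAP2K2 (chromosome 19, 4090321 to 4124129) and MAPK3 (chromosome 16, 30114105 to 30123506) overlap no other annotated gene in GENCODE release 29.

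MYCN binds the E-box CACGTG, a sequence that reads the same on both strands, and RefSeq promoter windows (250 bases before to 50 after a start, GRCh38.p14) were searched for it. Of 35116 windows, 7.26% held it. The 7 genes had 9 windows, and those of NRAS and MAPK3 held it, 57 and 135 bases before the start. NRAS is shown because it differed most with siMYCN among these genes, and MAPK3 for comparison, each as 100 bases around the motif with the motif in capitals. The stretches lie at chr1:114716776-114716875 and chr16:30123303-30123402, on the minus strand.
NRAS promoter: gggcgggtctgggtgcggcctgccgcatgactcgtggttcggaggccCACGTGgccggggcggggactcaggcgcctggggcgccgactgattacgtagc
MAPK3 promoter: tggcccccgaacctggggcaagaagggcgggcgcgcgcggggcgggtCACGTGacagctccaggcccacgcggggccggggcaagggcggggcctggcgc

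NRAS was higher and MAPK3 changed by 2.52% and 10.3% with siMYCN in the 2 pairs. The motif is a match of letters, and no occupancy was measured.

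The genes whose course over the 4 libraries lay closest to a member were listed for members that ranged over at least 0.3 in log2, which were NRAS and MAP2K1. Closeness was the Euclidean distance between centred log2(value + 1) profiles over 4 libraries. For NRAS these were GMIP (distance 0.023) and MPC1 (0.032). MPC1, a subunit of the mitochondrial pyruvate carrier, was at 70.6, 59.5, 89.5 and 70.3, with the highest and lowest values in the same libraries as NRAS. For MAP2K1 they were SARNP (0.013) and HILPDA (0.018). With 9324 genes and 4 points, near matches are found for many profiles.

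The surrounding pathway was read from 8 gene lists drawn from general knowledge, with 142 genes of which 100 were tested. For let-7a, limma called 0 of these 100, with 12 at an unadjusted p under 0.05, where 7.48% of all tested genes were. For siMYCN it called 5 higher and 1 lower, where the background was 2.07% higher and 1.36% lower. At an unadjusted p under 0.05 there were 29, close to the 26.4% of all tested genes.

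Among 9 tested relatives of the RAS GTPases, 0 were called for siMYCN, where 3.43% of all tested genes were called. Of the 9, 6 were above 0, against 58.3% of all tested genes, with a median of 0.12 against 0.056. RALA, a RAL GTPase downstream of RAS, was at 78.3 and 75.7 with siCon and 95.9 and 91.0 with siMYCN (miRCon, then let-7a; adjusted p = 0.115 in limma). RRAS, which acts on cell adhesion, was at 13.4 and 13.4 with siCon and 10.3 and 6.58 with siMYCN (adjusted p = 0.132 in limma). With let-7a, RALB had the highest additive effect of this list at 0.11 and RRAS the lowest at -0.29.

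The activators and adaptors that load RAS had 0 of 9 called with siMYCN, where 3.43% of all tested genes were called. Of the 9, 7 were above 0 in both pairs, against 43.2% of all tested genes, with a median of 0.22. SOS2, a RAS exchange factor, was at 16.5 and 17.3 with siCon and 25.04 and 25.6 with siMYCN, a log2 effect of 0.55 (adjusted p = 0.0742 in limma). GAB1, a docking protein, had the lowest effect at -0.30. SHC1, the adaptor that links receptors to SOS, had the highest let-7a effect of the list, with 137 and 160 in siCon cells and 147 and 204 in siMYCN cells (adjusted p = 0.663 in limma). SOS1 had the lowest let-7a effect at -0.14.

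Of 7 tested proteins that restrain RAS, 0 were called with either treatment. Of all tested genes, 0% were called for let-7a and 3.43% for siMYCN. SPRED2, a membrane protein that brings the RAS GTPase activator neurofibromin to RAS, was at 33.1 and 33.0 with siCon and 46.95 and 44.3 with siMYCN (adjusted p = 0.074 in limma). RASA1, a RAS GTPase activator, was at 6.80 and 3.97 with siCon and at 6.23 and 3.44 with siMYCN. With let-7a it was lower in both pairs, at log2 -0.65 and -0.70 (adjusted p = 0.663 in limma). RASA1 passed the filter only through the miRCon libraries, where it was high. LZTR1, part of a ubiquitin ligase for RAS proteins, had the lowest siMYCN effect at -0.19 and the highest let-7a effect at 0.11. NF1, which encodes neurofibromin, was under the filter, between 2.09 and 2.28.

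The genes for the lipid tail and the trafficking of RAS had 0 of 9 called with either treatment. The shares of all tested genes called were 0% for let-7a and 3.43% for siMYCN. FNTA, a farnesyltransferase subunit, was at 28.3 and 24.4 with siCon and 21.9 and 18.6 with siMYCN (adjusted p = 0.142 in limma). ZDHHC9, a palmitoyltransferase of NRAS and HRAS, had the highest siMYCN effect at 0.20. With let-7a, 6 of these 9 were below 0 in both pairs, against 33.5% of all tested genes. The depalmitoylase LYPLA1 was lowest at -0.23, and the protease RCE1, which trims the RAS tail, was highest at 0.47.

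Scaffolds and regulators of the kinases had 1 of 25 called higher and 0 lower with siMYCN, where 2.07% and 1.36% of all tested genes were called. Of the 25, 20 were above 0 in both pairs, against 43.2% of all tested genes. HSP90AA1, the chaperone whose clients include RAF kinases, rose from 782 to 1120 with miRCon and from 679 to 1088 with let-7a (log2 effect 0.60 ± 0.060, SE, adjusted p = 0.0278 in limma). WDR83, a scaffold protein for the ERK cascade, had the highest effect at 2.16 ± 0.48 but low values, 3.10 and 0.706 with siCon against 8.36 and 13.9 with siMYCN (adjusted p = 0.0687 in limma). WDR83 passed the filter only through the siMYCN libraries, where it was high. ARRB1, an arrestin, had the lowest siMYCN effect at -0.15. With let-7a, 15 of these 25 were below 0 in both pairs, against 33.5% of all tested genes. LAMTOR3, a scaffold of MEK1 on endosomes, had the lowest let-7a effect at -0.43, and PEBP1, which inhibits RAF, the highest at 0.098.

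Below ERK, the kinases and ETS factors that ERK phosphorylates had 1 of 12 called lower and 0 higher with siMYCN. Of all tested genes, 1.36% were called lower and 2.07% higher. RPS6KA2, an RSK kinase, fell from 38.2 to 20.4 with miRCon and from 41.4 to 17.2 with let-7a (log2 effect -1.05 ± 0.14, SE, adjusted p = 0.0355 in limma). RPS6KA6, another RSK kinase, had the highest siMYCN effect at 0.35 and the lowest let-7a effect at -0.45, at 48.5 and 39.8 with siCon and 69.8 and 45.2 with siMYCN. Its course was that of NRAS in sign for both treatments and in both pairs, as for 14.6% of all tested genes. Of the tested list genes named here, SOS1, RALA, SPRED2, ZDHHC9, LAMTOR3, HSP90AA1 and CCND1 shared those signs too. Others of the lists, not named here, did as well and were not counted. SRF, a partner of ETS factors, had the highest let-7a effect at 0.094.

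Transcripts known to be induced by ERK had 4 of 15 called higher and 0 lower with siMYCN, where 2.07% of all tested genes were called higher. Of the 15, 14 were above 0, against 58.3% of all tested genes, with a median of 0.40 against 0.056. The called genes were DUSP6 and DUSP4, phosphatases of ERK, SPRY4, an inhibitor of receptor signalling to RAS, and CCND1, cyclin D1. SPRY4 rose from 30.1 to 54.8 with miRCon and from 32.8 to 74.4 with let-7a, and DUSP4 from 26.9 to 45.7 and from 29.1 to 51.5. DUSP6 was at 3.51 and 4.10 with siCon and 21.7 and 26.0 with siMYCN, so it passed the filter only through the siMYCN libraries, where it was high. Its log2 effect was 2.37 with a pseudocount of 1 and 1.71 with a pseudocount of 5. At a mean of at least 20 it was not tested and 3 members of the list were called higher. CCND1 had the smallest effect of the called at 0.40, and all 4 had adjusted p between 0.0207 and 0.0383 in limma. ETV1, an ETS factor, was the single tested member below 0 for siMYCN, at -0.11 over both pairs, and had the lowest let-7a effect of the list at -0.72. Its values lay near the filter, at 7.23 and 8.66 with miRCon (siCon, then siMYCN) and 5.30 and 3.63 with let-7a. ETV1 passed the filter only through the miRCon libraries, where it was high. EGR1, an immediate early factor, had the highest let-7a effect, at 21.4 and 30.8 in siCon cells and 22.1 and 48.0 in siMYCN cells (adjusted p = 0.663 in limma). All 6 calls in these lists were absent with no filter and with limma without a trend, which call 0 genes in all.

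The other MAP kinase cascades had 0 of 14 called with either treatment, where 0% of all tested genes were called for let-7a and 3.43% for siMYCN. Their siMYCN median was 0.070. MAPK8, which encodes the JNK1 kinase, had the highest siMYCN effect at 0.94 from uneven values, 7.08 and 2.56 with siCon against 7.64 and 11.2 with siMYCN. It passed the filter only through the siMYCN libraries, where it was high. MAP3K2 had the lowest siMYCN effect at -0.31. With let-7a, MAPK12, a p38 kinase, was highest at 0.32 and MAP3K1 lowest at -0.44. The lists hold well-known genes and were put together with earlier results of these libraries known, so their counts are descriptions, and none was compared with other lists by a test.

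**Figure D4:**
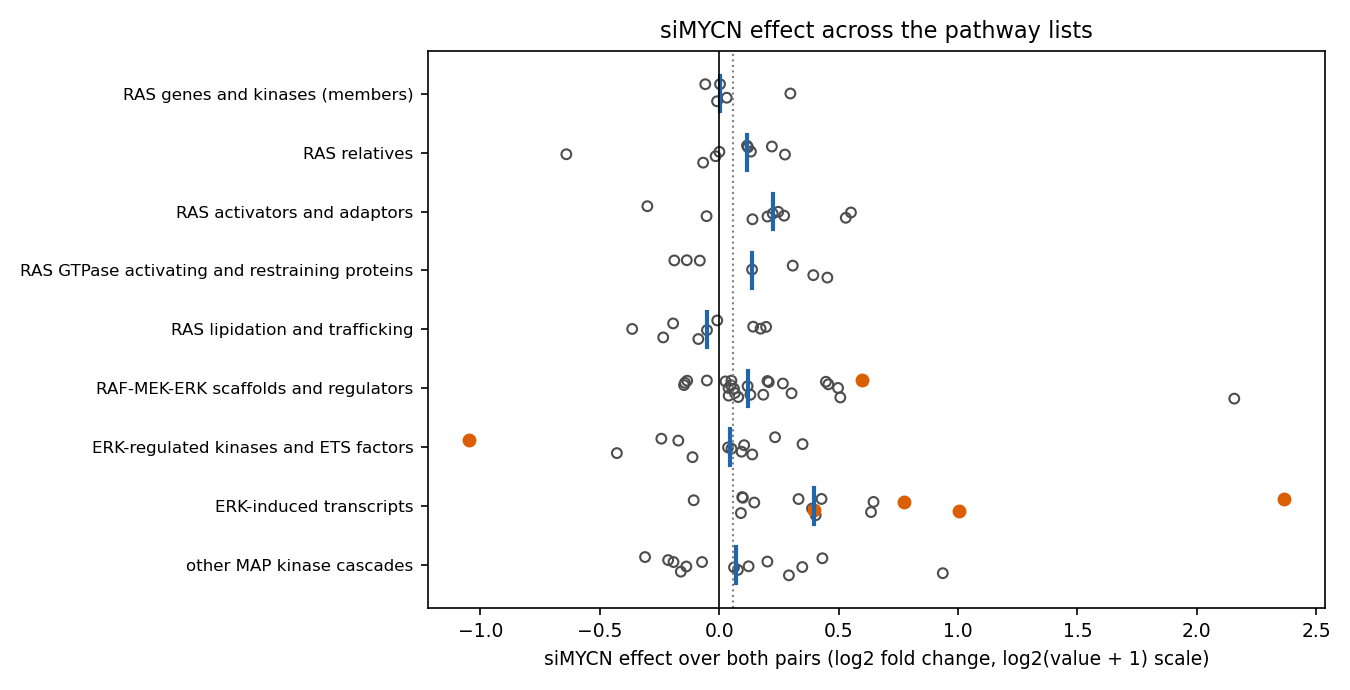
Additive siMYCN effect (horizontal axis, log2 fold change on the log2(value + 1) scale) of the tested genes of the 5 members and of each list, with 1 circle a gene, filled where limma's adjusted p was under 0.05, a bar at each median and a dotted line at the median of all tested genes (0.056). The 4 filled circles among ERK-induced transcripts lie at 0.40 or higher, and the members lie between -0.059 and 0.30.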

How the data were processed

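RNA sequencing values for 4 libraries were analysed, 1 a group, taken from the sample labels. The deposited values were on a natural log scale: exp(x) - 1 summed to between 855811 and 862049, where base 2 gave at most 147588. Per the submitters' processing notes, the build was GRCh38 and the tools were Salmon 0.3.2 and HISAT 0.1.6, in roles the notes do not state. How the authors annotated, filtered and logged the values is not given in the sources used here. Vector rows (11) were set apart, 28 names that had become calendar dates were left as they stood, and genes with a mean of at least 5 were tested.

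Limma 3.58.1 (R 4.3.3), with a trend, was fitted to log2(value + 1) with additive siRNA and mimic terms over 9324 genes, with 4.30 prior and 1 residual degrees of freedom. It was also run on simulated data that were additive, with the fitted noise. Such data hold no interaction, so that run could not check the assumption that the treatments do not interact. Benjamini-Hochberg adjustment ran over all genes. Sites were counted in the longest 3′ UTR of GENCODE release 29. Python 3.11.15, pandas 2.3.3, NumPy 2.4.6 and matplotlib 3.10.9 were used.

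The members, lists and tests were chosen with earlier results of these data known. Named genes were the members, the called, highest and lowest genes of each list, the 2 nearest profiles for members that ranged over at least 0.3, and MYCN and LIN28B. RPS18, the proteasome genes, the overlapping and neighbouring genes and NF1 were named after their values were seen. Alternatives tried were no filter, a filter at a mean of 20, pseudocounts of 0.1 and 5, median-ratio rescaling, no trend, other fold sizes, single pairs and another 3′ UTR.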

Additional observations from a re-analysis of the deposited data

Results flagged for a closer look

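In 4 of the 5 tested members the fold change with siMYCN had opposite signs in its 2 pairs of libraries, against 29.4% of all tested genes. For ARAF and BRAF these siMYCN effects were near 0 in both pairs. With let-7a only MAP2K1 and MAP2K2 of the tested members had opposite signs, against 44% of all tested genes. With 1 library a group none of these differences was tested. HRAS, under the filter, had opposite signs for both treatments, in values too low for a direction to be read. For MAP2K1 the let-7a effect in siMYCN cells minus that in siCon cells was -0.52 (log2), from 0.22 in siCon cells to -0.31 in siMYCN cells. For MAP2K2 it was -0.38, from 0.22 to -0.16. For ARAF the siMYCN effect was 0.091 with miRCon and -0.084 with let-7a, a difference of -0.17. For BRAF it was -0.039 with miRCon and 0.021 with let-7a, a difference of 0.060.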

How the results depend on the processing

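No replicate block could be fitted because each group held 1 library and the labels give no replicate numbers. The additive model already sets each treatment's pairs of libraries against each other. No alternative brought a member past an adjusted p of 0.05 in limma. For NRAS, the let-7a effect lay between -0.27 and -0.23 over 6 alternatives (adjusted p 0.596 to 0.809 in limma) and the siMYCN effect between 0.24 and 0.30 (adjusted p 0.0904 to 0.22 in limma). Rescaling turned the sign of the siMYCN effects of ARAF (-0.057) and MAP2K2 (-0.030). It divided the siCon libraries by 0.989 and 0.972 and the siMYCN libraries by 1.04 and 1.01 (miRCon, then let-7a). Rescaling therefore lowered the siMYCN effect of every gene, and effects near 0 could change sign. Taken as single pairs, MAP2K1 had let-7a effects of 0.22 and -0.31 and siMYCN effects of 0.20 and -0.32, and MAP2K2 had 0.22 and -0.16, then 0.22 and -0.16. The BRAF site was absent (0) from the other 3′ UTR.

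Over all genes, 193 were called higher and 127 lower with siMYCN. These counts were 0 and 0 with no filter, 0 and 0 without a trend, 310 and 196 at a mean of at least 20, and 343 and 408 with rescaled values. Of the list counts, 184 kept within 1.5 times and 8 did not. Most of the 184 were counts of 0 that stayed 0, so they say little about stability. The counts above 0 were the scaffold list's 1 higher, the 1 lower ETS and kinase gene and the 4 higher ERK-induced genes. All 8 changes fell on these counts. The scaffold count became 0 with no filter and 0 without a trend, 2 at a mean of at least 20 and 2 with rescaled values. The ETS and kinase count and the ERK-induced count became 0 under the first 2 of these settings. The size rule took 19 higher and 24 lower genes for let-7a and 266 and 150 for siMYCN. For let-7a it took 94 and 128 at 1.3-fold, 4 and 3 at 2-fold, 8 and 9 with a pseudocount of 5, and 1 and 4 at a mean of at least 20. For siMYCN the same settings gave 761 and 423, 36 and 28, 128 and 96, and 105 and 74. Read depth is unknown, so precision at low values such as HRAS and MAPK3 cannot be stated.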
